A study of Homo sapiens with 9 samples.

Results

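The transcription factors that drive epithelial-mesenchymal transition (EMT), and one that opposes it, were followed in 786-0 cells. This human clear cell renal cell carcinoma line lacks functional VHL, carries an inactivating HIF1α mutation and expresses HIF2α constitutively. The 8 genes were chosen by name, and their rows were read from a table of counts for 58735 gene identifiers after matching Ensembl identifiers to gene symbols. They are SNAI1 and SNAI2 (Snail and Slug), ZEB1 and ZEB2, TWIST1 and TWIST2, PRRX1, and GRHL2. Of the 8 genes, 4 (SNAI1, SNAI2, ZEB1 and ZEB2) had counts, and the other 4 were at 0 counts in every library.

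RNAseq was performed on 9 libraries, 3 replicates in each of 3 groups. The first group was the parental line (786-0 WT) without drug, named as control in the labels with no vehicle stated. The second was 786-0 WT treated with 10 μM PT2385, a HIF2α antagonist that blocks its pairing with ARNT, for 48 h. The third was a HIF2α knockout of the line (786-0 KO) without drug; how the knockout was made, and whether it is 1 clone, is not given in the sources used here. All cells were kept for 48 h at 21% O2 in medium with 5 mM glucose and 10% serum, and nothing says whether replicates were separate cultures, so p-values measure the spread between these libraries, which may be technical. In bulk RNA, fewer cells expressing a gene and less RNA per cell cannot be told apart.

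Snail and Slug are zinc finger repressors that bind E-box motifs, and E-cadherin (CDH1) is their textbook target. ZEB1 and ZEB2 are larger zinc finger and homeodomain repressors of the same class of genes, and they stand in mutual repression with the miR-200 family of microRNAs. TWIST1 and TWIST2 are basic helix-loop-helix factors, PRRX1 is a homeobox factor of mesenchyme, and GRHL2 is a grainyhead factor that maintains the epithelial state and represses ZEB1.

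The miR-200 seeds and their matches are shown because they set the ZEB pair apart from the other 6 genes at the sequence level. The family has 2 seeds (bases 2 to 8 of the mature strand, in capitals below, RefSeq, GRCh38.p14). miR-200a-3p and miR-141-3p share one seed, and miR-200b-3p, miR-200c-3p and miR-429 share the other.
miR-200a-3p: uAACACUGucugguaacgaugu
miR-141-3p: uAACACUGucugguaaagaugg
miR-200b-3p: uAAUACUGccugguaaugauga
miR-200c-3p: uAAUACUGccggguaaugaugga
miR-429: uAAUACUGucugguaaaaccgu

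Exact 7-base complements of these seeds (CAGTGTT for the first and CAGTATT for the second, sense strand only) were counted in the 3′UTR of the canonical transcript of each gene. The ZEB1 3′UTR of 2540 bases held 9 matches, 6 CAGTATT and 3 CAGTGTT. The ZEB2 3′UTR of 5370 bases also held 9 matches, 5 CAGTATT and 4 CAGTGTT. Among canonical 3′UTRs within 20% of the same length, as many matches or more were found in 1 of 2412 for ZEB1 and in 2 of 1170 for ZEB2, counting the gene itself. SNAI2 and GRHL2 held 1 match each, and SNAI1, TWIST1, TWIST2 and PRRX1 held 0. The first CAGTATT and the first CAGTGTT of each ZEB 3′UTR, with flanking bases in lower case and the match in capitals, read as follows (GRCh38, sense strand). They lie at chr10:31527623-31527640 (+), chr10:31528036-31528053 (+), chr2:144389052-144389069 (-) and chr2:144389236-144389253 (-).
ZEB1 CAGTATT: tttatcttatCAGTATTa
ZEB1 CAGTGTT: tcatcagaatCAGTGTTt
ZEB2 CAGTATT: taccatacatCAGTATTt
ZEB2 CAGTGTT: aaattttgtaCAGTGTTa

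**Figure D1:**
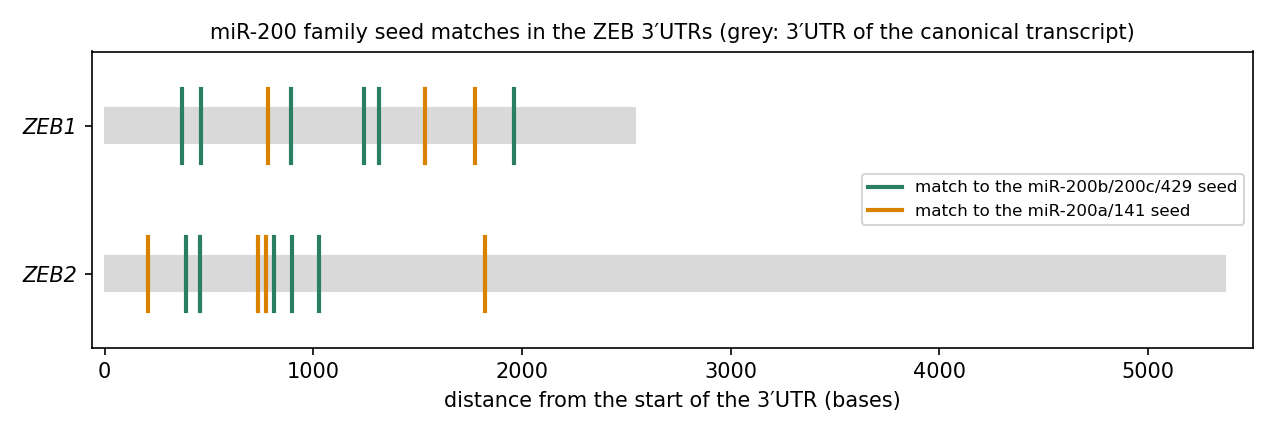
Position of each 7-base match to a miR-200 family seed (vertical lines, coloured by seed) along the 3′UTRs of ZEB1 and ZEB2 (grey bars), in bases from the start of the 3′UTR. Each 3′UTR holds 9 matches, and those of ZEB2 begin no later than base 1825 of its 5370 bases.

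A match is a description of the letters and not a shown site, and mature microRNAs were not measured in these libraries. Rows named for the precursor genes are in the table: MIR200C, MIR141 and the host gene MIR200CHG were at 0 counts in all 9 libraries, and MIR200A, MIR200B and MIR429 had 97, 102 and 113 counts summed over the 9 libraries.

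The libraries held 11881000 to 14730081 counts each. EPAS1, which encodes HIF2α, was at 270, 264 and 233 counts per 1000000 (CPM) in the 786-0 WT replicates, at 248, 248 and 219 upon PT2385 treatment and at 20.2, 24.95 and 21.1 in the KO. The log2 fold change of EPAS1 in the KO was -3.52 (adjusted p = 2.15e-09), and NDRG1, EGLN3 and VEGFA, known HIF2α targets, were down-regulated both upon PT2385 treatment and in the KO. Of 8 renal markers, 7 were above 3 counts in every WT and PT2385 library and 6 in every KO library, with CA9 at 0 throughout. Their summed level ran from 957 to 990 CPM in WT, from 1041 to 1125 upon PT2385 treatment and from 995 to 1176 in the KO. Single markers moved apart within this sum: CDH6 had 1130 to 1244 counts per library in WT, 3344 to 3691 upon PT2385 treatment and 2054 to 4213 in the KO, and PAX2 had 377 to 461, 270 to 390 and 146 to 230. Of 6 fibroblast markers, PDGFRA, DCN and COL3A1 were at 0 in every library, and the summed level of the 6 was 8.78 to 10.1 CPM in WT, 10.48 to 13.3 upon PT2385 treatment and 5.22 to 6.999 in the KO. Within this sum PDGFRB had 27 to 31 counts per library in WT, 23 to 37 upon PT2385 treatment and 0 to 2 in the KO. LUM had 15 to 22, 29 to 37 and 31 to 60, and COL1A1 had 55 to 77, 86 to 104 and 24 to 45. PECAM1 and VWF (endothelial) and CD3E (leukocyte) were at 0 in every library, and the summed level of either list was at most 0.167 CPM.

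TWIST1, TWIST2, PRRX1 and GRHL2 were not detected. With 0 counts in a library, a floor of 3 counts allows a level of up to 0.206 to 0.251 CPM, depending on the library, and floors and intervals on shares cover counting error only. These genes entered no test and had no fold change. The relatives SNAI3 and PRRX2 had 5 and 0 counts in all 9 libraries together. Of the 8 genes, Snail, Slug and the ZEB pair were thus the ones detected at this depth, in all 3 groups.

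Levels were set against each other as CPM per kilobase of the canonical transcript (mean ± SD, n = 3). In 786-0 WT the order was ZEB2 with 13.5 ± 1.003, SNAI2 with 11.3 ± 1.68, SNAI1 with 9.07 ± 1.599 and ZEB1 with 8.21 ± 0.318. The ranges of the WT replicates did not overlap between ZEB2 (12.6 to 14.6) and SNAI2 (9.39 to 12.5), but they overlapped between SNAI2 and SNAI1 (8.01 to 10.9), and between SNAI1 and ZEB1 (7.84 to 8.40). Upon PT2385 treatment the order was SNAI2 with 16.9 ± 2.10, ZEB2 with 9.75 ± 1.96, SNAI1 with 9.61 ± 1.25 and ZEB1 with 6.62 ± 2.26. In the KO it was SNAI2 with 21.4 ± 3.45, ZEB2 with 10.3 ± 0.188, ZEB1 with 8.30 ± 0.925 and SNAI1 with 7.28 ± 2.01. By this length Slug stood apart from the other 3 genes in the treated cells and in the KO, its lowest library (14.6 and 17.8 CPM per kilobase) lying above the highest library of any of them (11.4 and 10.47). The order depended on the length used. Per kilobase of all annotated exons (26151 bases in place of 9265 for ZEB2, 3281 in place of 2180 for SNAI2), the WT order was SNAI1 with 9.07, SNAI2 with 7.52, ZEB1 with 5.63 and ZEB2 with 4.78. By that length the treated libraries of SNAI2 (9.69 to 12.4) overlapped those of SNAI1 (8.52 to 10.97), while the KO libraries of SNAI2 (11.8 to 16.4) still lay above those of SNAI1 (5.76 to 9.55), the next highest gene.

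SNAI2 (ENSG00000019549, chr8:48917598-48921740, minus strand, GRCh38) encodes Slug. It was up-regulated both upon PT2385 treatment and in the KO. The WT replicates 1, 2 and 3 were at 26.3, 27.2 and 20.5 CPM. The treated replicates were at 40.6, 38.1 and 31.8 CPM, and the KO replicates at 53.9, 38.9 and 47.2 CPM. All treated and all KO libraries lay above all WT libraries, while the KO and the treated libraries overlapped, KO replicate 2 lying below treated replicate 1. The log2 fold change was 0.57 (SE 0.123, 95% interval 0.30 to 0.84) upon PT2385 treatment, with an adjusted p of 0.0140 from the quasi-likelihood F test of edgeR over all genes tested. In the KO it was 0.93 (SE 0.135, 0.63 to 1.23, adjusted p = 3.81e-04). KO against PT2385 gave 0.34 (0.05 to 0.62), which missed the threshold in the same test (adjusted p = 0.0967) and passed it when KO replicate 2 was left out (0.46, adjusted p = 0.0262) or no filter on low counts was used (adjusted p = 0.0118). The call upon PT2385 treatment was lost without PT2385 replicate 2 (0.54, adjusted p = 0.0718) and without WT replicate 3 (0.46, adjusted p = 0.0533), and the call in the KO held without any 1 library (0.81 to 1.05).

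SNAI1 (ENSG00000124216, chr20:49982980-49988886, plus strand) encodes Snail, the closest relative of Slug in the set. Its WT replicates were at 13.7, 18.6 and 14.1 CPM, its treated replicates at 18.7, 15.9 and 14.5, and its KO replicates at 11.1, 16.3 and 9.82. The 3 groups overlapped, and replicate 2 was the highest library of both WT and KO. The log2 fold change was 0.08 (-0.23 to 0.38, adjusted p = 0.814, edgeR) upon PT2385 treatment, -0.30 (-0.72 to 0.12, adjusted p = 0.271) in the KO, and -0.40 (-0.80 to 0.01, adjusted p = 0.170) for KO against PT2385. Without KO replicate 2 both KO comparisons passed the threshold, at -0.55 (adjusted p = 0.0275) against WT and -0.65 (adjusted p = 0.0170) against PT2385. Without a filter on low counts, KO against PT2385 passed as well (adjusted p = 0.0469).

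ZEB2 (ENSG00000169554, chr2:144364364-144521057, minus strand) was the most counted of the 8 genes and was down-regulated in both comparisons with WT. The WT replicates were at 135, 124 and 116 CPM. The treated replicates were at 105, 95.8 and 70.1 CPM, and the KO replicates lay close together at 94.2, 93.8 and 97.0 CPM. No treated or KO library reached the lowest WT library. The log2 fold change was -0.48 (SE 0.121, -0.74 to -0.21, adjusted p = 0.0341, edgeR) upon PT2385 treatment and -0.38 (SE 0.0692, -0.54 to -0.23, adjusted p = 0.00161) in the KO. The KO and the treated cells did not differ past the threshold, at 0.07 (-0.20 to 0.35, adjusted p = 0.747). The call upon PT2385 treatment was lost without WT replicate 1 (-0.42, adjusted p = 0.144), WT replicate 2 (-0.48, adjusted p = 0.121), WT replicate 3 (-0.52, adjusted p = 0.0574) or PT2385 replicate 2 (-0.52, adjusted p = 0.0794). The call in the KO held without any 1 library (-0.44 to -0.32).

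ZEB1 (ENSG00000148516, chr10:31318495-31529814, plus strand) passed the threshold in no comparison. Its WT replicates were at 49.9, 49.8 and 46.6 CPM, its treated replicates at 52.3, 40.2 and 25.4, and its KO replicates at 51.4, 43.0 and 53.4. The treated libraries ran from above all WT libraries to far below them, and the KO libraries spanned the WT range. The log2 fold change was -0.32 (-0.72 to 0.08, adjusted p = 0.357, edgeR) upon PT2385 treatment, 0.03 (-0.17 to 0.22, adjusted p = 0.844) in the KO, and 0.33 (-0.12 to 0.78, adjusted p = 0.308) for KO against PT2385. Without PT2385 replicate 1 the treated cells fell below WT (-0.58, adjusted p = 0.0199) and below the KO (0.59 for KO against PT2385, adjusted p = 0.0388), and without a filter on low counts both comparisons passed too (adjusted p = 0.0125 and 0.0132).

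PT2385 replicate 3 was the lowest library of the 9 for both ZEB genes, which have long transcripts. In that library the median log2 difference from the WT mean was -0.04 for genes with a canonical transcript of 5000 bases or more and 0.08 for genes under 2000 bases, a gap of -0.12. The same gap ran from -0.09 to 0.04 in the other 8 libraries. With this trend removed from each library, ZEB2 upon PT2385 treatment was at -0.44 (adjusted p = 0.0248, edgeR) and ZEB1 at -0.31 (adjusted p = 0.351). With the replicate number as a block in the same fit, ZEB2 was at -0.45 (adjusted p = 2.38e-05) and ZEB1 passed the threshold at -0.34 (adjusted p = 0.0347); with the block alone the calls of the 4 genes upon PT2385 treatment did not change, SNAI2 having an adjusted p of 1.36e-04 and ZEB2 of 1.94e-04. The exons of ZEB1 overlap its antisense gene ZEB1-AS1 by 396 bases (511 counts in 9 libraries for ZEB1-AS1, 5371 for ZEB1), and those of ZEB2 overlap ZEB2-AS1 by 1299 bases (8 counts against 12085). Whether counting used the strand is not given in the sources used here, so reads in those stretches cannot be told apart.

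**Figure D2:**
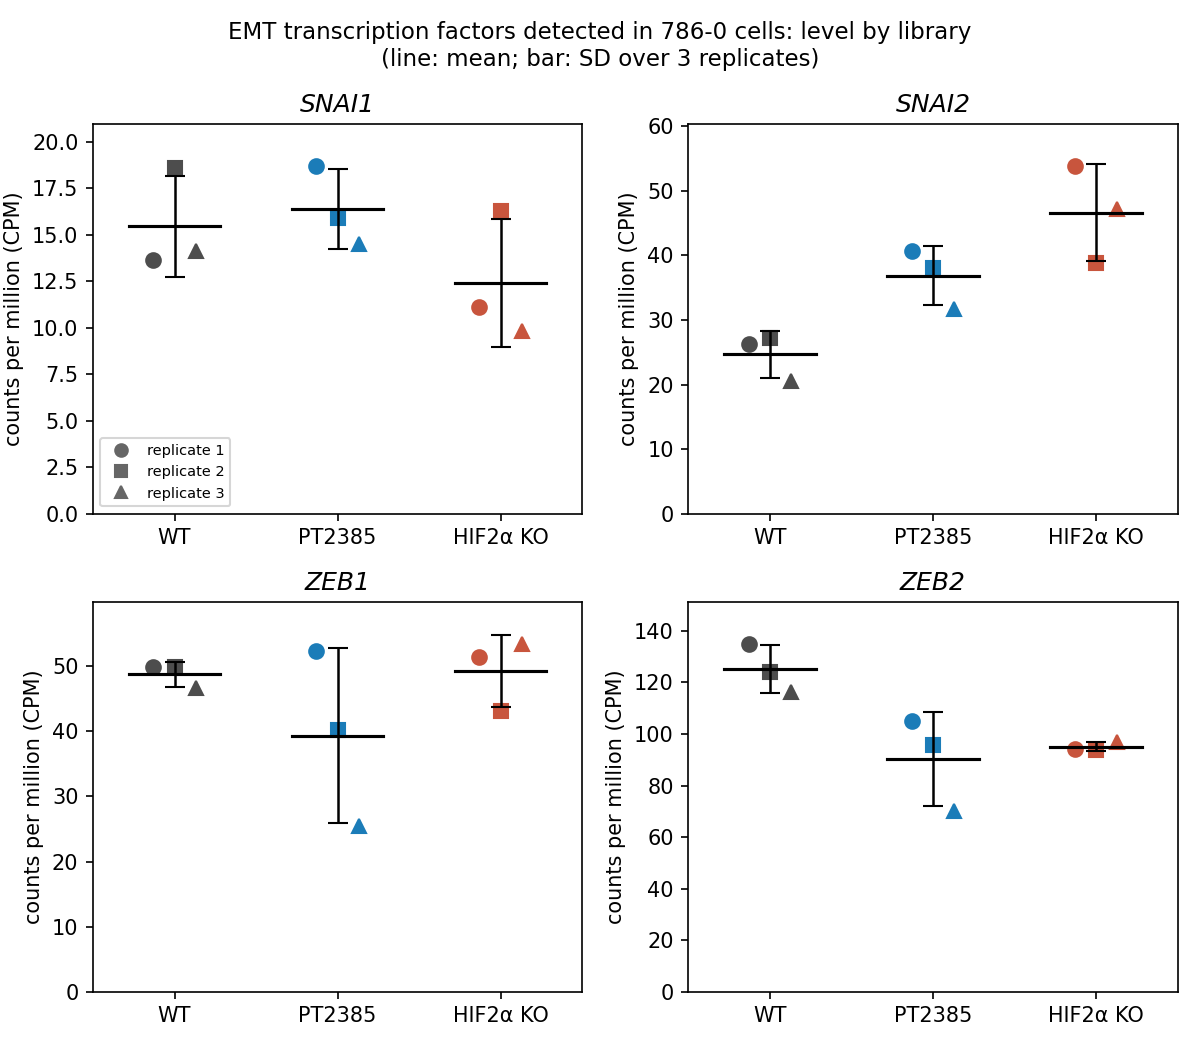
Level in CPM of the 4 detected EMT transcription factors in each library, by group, with the mean (line) and SD (bar) over 3 replicates. SNAI2 rose and ZEB2 fell with no overlap with WT in either group, while SNAI1 and ZEB1 overlapped WT in both.

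Of the 4 genes tested, 2 were called upon PT2385 treatment (SNAI2 higher, ZEB2 lower), where 7.70% of 15089 genes tested were called in all (3.08% higher and 4.62% lower) and 26.1% had groups that did not overlap. In the KO the same genes were called in the same directions, where 30.1% of 15192 genes were called (14.7% higher and 15.4% lower) and 43.8% had groups that did not overlap. KO against PT2385 called 0 of the 4 genes with edgeR and 0 with DESeq2, while 1 (SNAI2) had an unadjusted p under 0.05, and 18.8% of 15402 genes were called (8.47% higher and 10.3% lower) with 35.4% not overlapping. The comparisons of the treated cells and of the KO with WT share the WT libraries, so the repeated direction is not independent. With the replicate number as a block, 2305 genes in place of 1162 were called upon PT2385 treatment, among them SNAI2 and ZEB2.

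**Figure D3:**
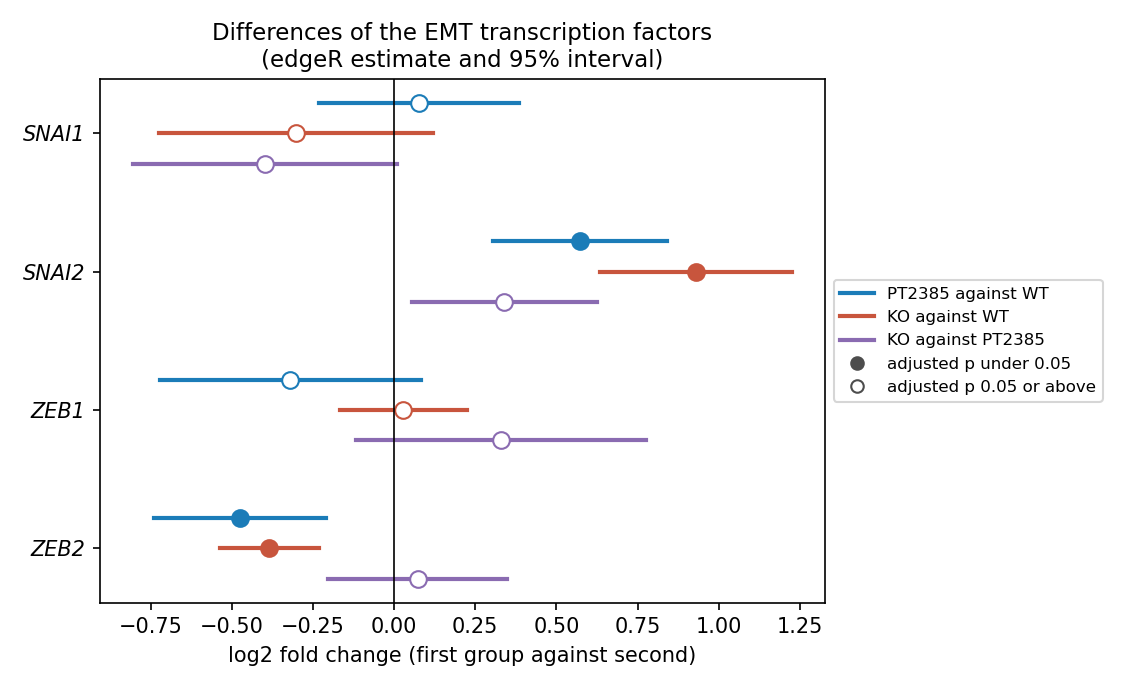
Log2 fold change and 95% interval of the 4 detected genes in the 3 comparisons (edgeR); filled points had an adjusted p under 0.05. SNAI2 lies right of 0 and ZEB2 left of 0 in both comparisons with WT, and no point is filled for KO against PT2385.

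The balance within each pair of relatives is a ratio within a library that scaling cannot alter. Slug made up 65.8%, 59.4% and 59.2% of the summed SNAI1 and SNAI2 counts in the WT replicates. The share was 68.5%, 70.5% and 68.6% in the treated replicates and 82.9%, 70.5% and 82.8% in the KO replicates. All treated and KO libraries were above all WT libraries, and the mean rose from 61.5% ± 3.77 (SD, n = 3) to 69.2% ± 1.15 upon PT2385 treatment and 78.7% ± 7.13 in the KO. The exact two-sided permutation test gave p = 0.1 for each, the smallest that 3 libraries against 3 allow, and p = 0.2 for KO against PT2385. The share of ZEB2 in the summed ZEB1 and ZEB2 counts was 71.9% ± 0.937 in WT, 70.2% ± 3.29 upon PT2385 treatment and 65.9% ± 2.27 in the KO (exact permutation p = 0.5 and 0.1 against WT). It was below all WT libraries in all 3 KO libraries, at 64.7%, 68.5% and 64.5%, and spread from 66.8% to 73.4% in the treated ones. Counting error alone gave each share a 95% Wilson interval, for example 65.0% to 71.7% for Slug in treated replicate 1.

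**Figure D4:**
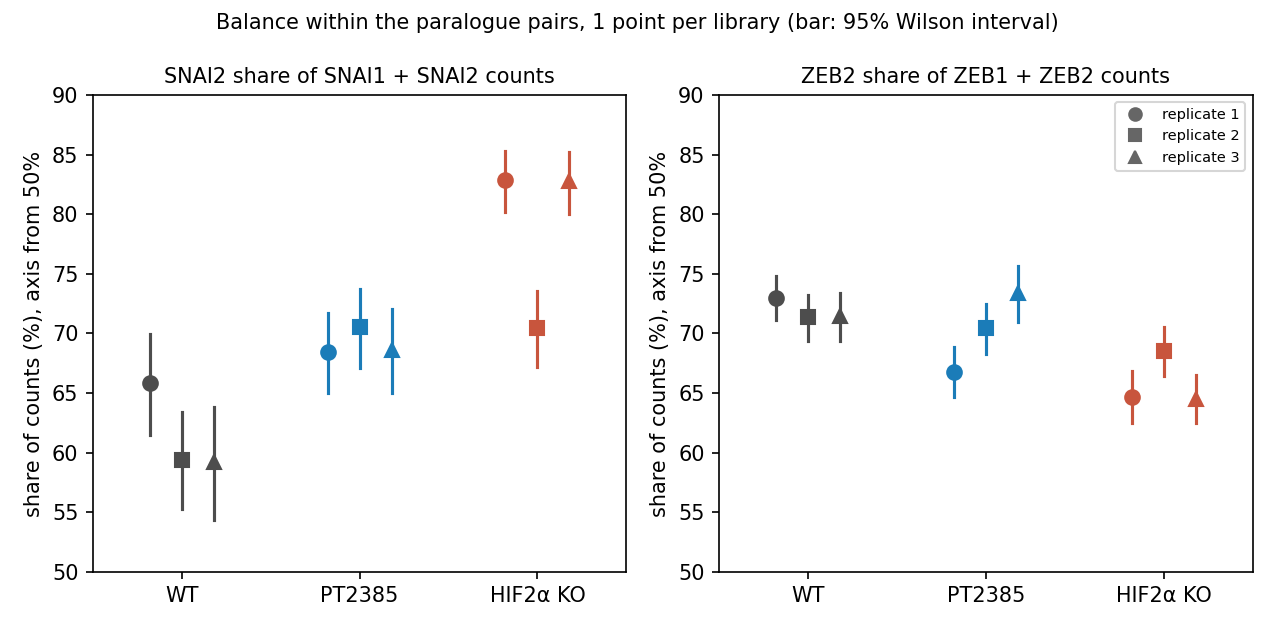
Share of SNAI2 in the summed SNAI1 and SNAI2 counts (left) and of ZEB2 in the summed ZEB1 and ZEB2 counts (right), in percent on an axis from 50% to 90%, 1 point per library with its 95% Wilson interval. The Slug share lies above every WT library in all treated and KO libraries, and KO replicate 2 lies with the treated libraries.

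The genes around these factors were taken from 8 lists with 167 genes in all: other EMT-associated factors, epithelial factors, epithelial genes, mesenchymal genes, co-repressors, regulators of protein stability, inducing signals, and microRNA hosts with antisense partners. Upon PT2385 treatment 16 of 125 tested genes rose and 10 fell (20.8%, against 7.70% of all genes), and with the replicate number as a block 21 rose and 19 fell. In the KO 29 rose and 34 fell (50.4%, against 30.1%), and between the KO and the treated cells 17 of 127 were higher in the KO and 26 lower (33.9%, against 18.8%). The lists were chosen with earlier results of these data known and hold genes such as FN1 and JAG1 that the paper reports as changed. The higher shares are therefore partly built in and are no test of the lists.

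**Figure D5:**
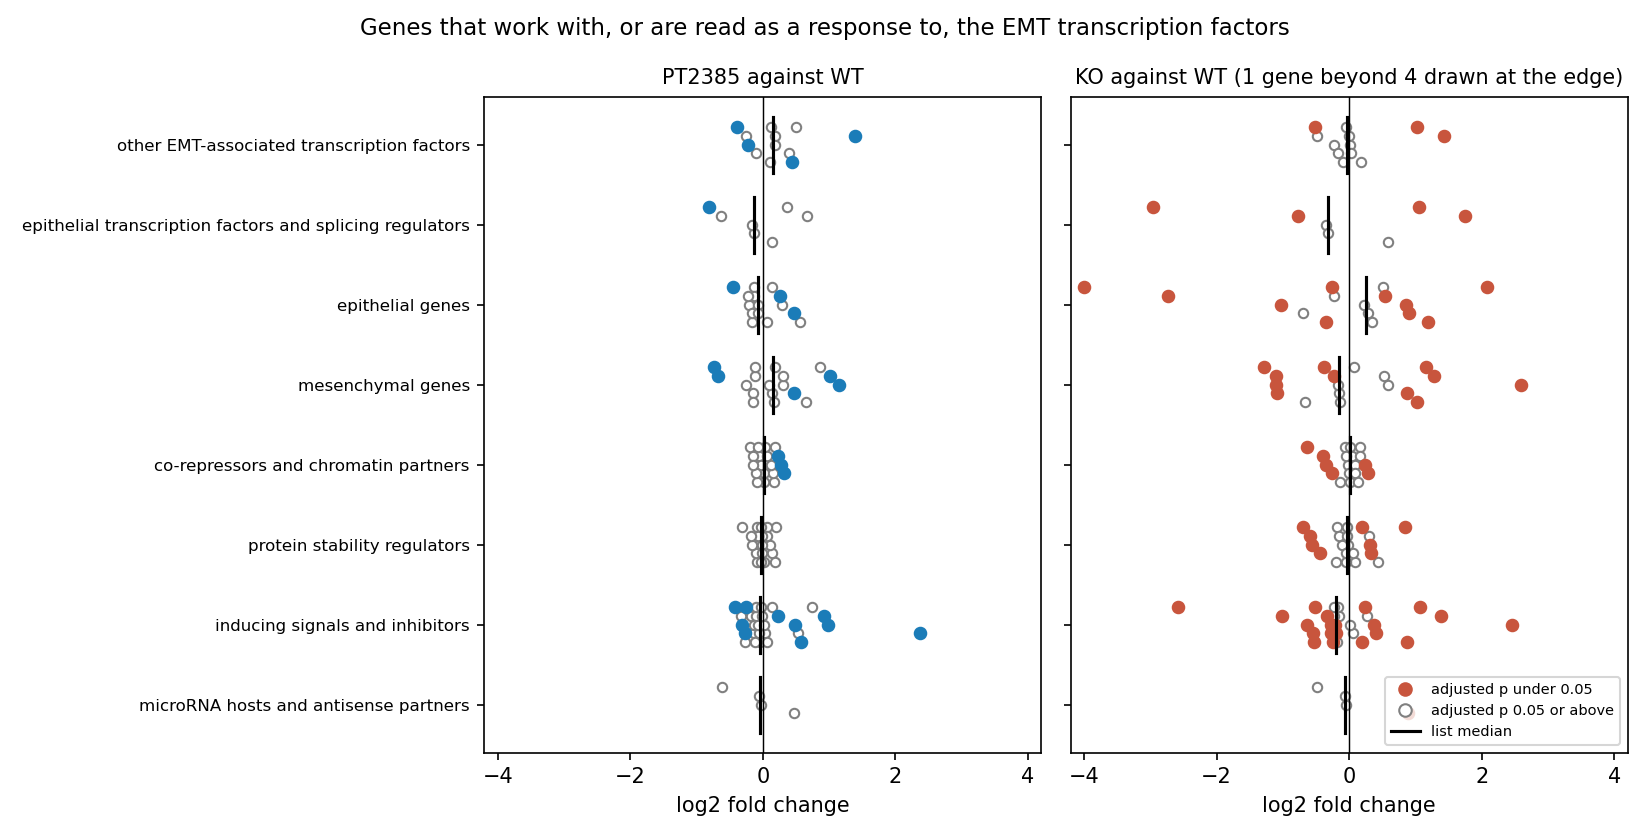
Log2 fold change upon PT2385 treatment (left) and in the KO (right) of the tested genes of the 8 lists, 1 point per gene, filled where the adjusted p was under 0.05, with the list median as a black line. Called genes lie on both sides of 0 in the epithelial and in the mesenchymal list of either panel; the point at the left edge is DSP, at 0 counts in the 3 KO libraries.

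E-cadherin (CDH1), the textbook target of all 4 detected repressors, had 2 counts in the 9 libraries together. The epithelial splicing factor ESRP1 and the grainyhead factor GRHL3 had 1 count each, and OVOL2, a repressor of ZEB1, had 0. GRHL1, the grainyhead member that was expressed, was at 5.91 ± 0.339 CPM in WT, 5.45 ± 0.807 upon PT2385 treatment and 4.56 ± 0.525 in the KO, with no call in either comparison with WT (adjusted p = 0.722 and 0.129, edgeR). Of 7 tested epithelial factors, 1 was called upon PT2385 treatment (14.3%, against 7.70% of all genes tested), KLF5, which was lower. In the KO 4 were called (57.1%, against 30.1% of all genes tested). KLF4, which is reported to restrain SNAI2, rose from 6.51 ± 1.37 to 21.6 ± 4.53 CPM (log2 fold change 1.74, adjusted p = 4.56e-05). FOXA1 rose (1.06), and FOXA2 (-0.77) and the splicing factor ESRP2 (-2.96) fell. ESRP2 had few counts, 30 to 44 per WT library and 4 to 9 per KO library, and passed the filter on low counts only through WT. Every KO library of KLF4 (18.6 to 26.8 CPM) lay above every treated library (7.70 to 8.73 CPM), and KO against PT2385 gave 1.36 (adjusted p = 1.96e-04).

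Epithelial genes moved in both directions, with 20% of those tested called upon PT2385 treatment and 62.5% in the KO (7.70% and 30.1% of all genes tested). Upon PT2385 treatment KRT18 (0.47) and KRT8 (0.26), the keratins of simple epithelia, rose and the tight junction claudin CLDN4 fell (-0.45, adjusted p = 0.00117, edgeR), 3 of 15 tested. In the KO 5 of 16 rose, led by plakoglobin (JUP, 2.08), EPCAM (1.19), SPINT2 (0.91), KRT18 (0.85) and KRT8 (0.54), and 5 fell, namely occludin (OCLN, -2.74), LLGL2 (-1.03), PATJ (-0.35), CLDN4 (-0.26) and desmoplakin (DSP), which had 22 to 27 counts in each WT library and 0 in each KO library. Some of these genes had few counts: JUP had 14 to 15 per WT library, and OCLN had 10 to 11 per WT library and 1 to 2 per KO library. OCLN and DSP passed the filter on low counts in this comparison only through their WT libraries, so only a fall could be called. Both are counted in the 5 that fell and in the 62.5%. The median log2 fold change of the list was -0.08 upon PT2385 treatment and 0.25 in the KO, beside 0.00 over all genes tested in each.

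Mesenchymal genes were split as well, with 27.8% of those tested called upon PT2385 treatment and 61.1% in the KO (7.70% and 30.1% of all genes tested). N-cadherin (CDH2) was at 383 ± 13.5 CPM in WT, 434 ± 4.64 upon PT2385 treatment (0.18, adjusted p = 0.0652, edgeR) and 325 ± 26.3 in the KO (-0.22, adjusted p = 0.0287), and it was lower in the KO than in the treated cells (-0.42, adjusted p = 0.00201). Vimentin (VIM) was at 4737 ± 180 CPM in WT and passed the threshold in neither comparison, at -0.11 (adjusted p = 0.252) and -0.14 (adjusted p = 0.0761). Upon PT2385 treatment 3 of 18 rose, fibronectin (FN1, 1.01), tenascin C (TNC, 0.46) and ACTA2 (1.15), and 2 fell, among them LOXL2 (-0.73). ACTA2 had few counts, 15 to 25 per WT library and 33 to 69 per treated library. FN1 reached 25199 ± 2822 CPM in the KO, from 4209 ± 728 in WT and 8484 ± 1447 upon PT2385 treatment. In the KO 5 of 18 rose (FN1, 2.59; WNT5A, 1.28; S100A4, 1.17; MMP2, 1.03; TNC, 0.88) and 6 fell, among them LOXL2 (-1.28), which stabilises Snail, and COL1A1 (-1.10). The list median was 0.16 upon PT2385 treatment and -0.15 in the KO.

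Among other factors that take part in EMT, 4 of 12 were called upon PT2385 treatment (33.3%, against 7.70% of all genes tested). SOX9, a partner of Slug in stem cell programmes, rose from 17.0, 11.7 and 10.0 CPM in the WT replicates to 48.0, 32.05 and 22.1 in the treated ones (1.39, adjusted p = 0.00503, edgeR), and to 44.2, 26.4 and 33.2 in the KO (1.43, adjusted p = 4.19e-04). All treated and KO libraries of SOX9 lay above all WT libraries. SOX4 rose (0.43) and ETS1 (-0.39) and RUNX2 (-0.23) fell upon PT2385 treatment. In the KO 3 of 12 were called (25%, against 30.1% of all genes tested). They were SOX9, HMGA2 (1.02, adjusted p = 0.00198), an architectural factor upstream of SNAI1 and TWIST1, and TCF12 (-0.51, adjusted p = 3.95e-04), an E-protein. TCF4, another E-protein, was at -0.25 upon PT2385 treatment (adjusted p = 0.0996) and at 0.01 in the KO (adjusted p = 0.924).

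Snail, Slug and ZEB proteins repress through chromatin enzymes. Upon PT2385 treatment 3 of 19 of these rose, EHMT2 (0.32), PRMT5 (0.27) and KDM1A (0.23), and 0 fell. The share called was 15.8% upon PT2385 treatment and 31.6% in the KO, against 7.70% and 30.1% of all genes tested. In the KO 2 rose, KDM1A (0.28, adjusted p = 0.00657, edgeR) and BMI1 (0.25), and 4 fell: the co-repressor scaffold SIN3A (-0.64, adjusted p = 4.58e-05), SUV39H1 (-0.40), and the Polycomb subunits EZH2 (-0.35) and SUZ12 (-0.26). SIN3A was at 121, 126 and 121 CPM in the WT replicates, 115, 121 and 125 in the treated ones and 74.6, 84.7 and 74.8 in the KO, where every library lay below all others.

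Snail and Slug proteins are short-lived, and the ligases and deubiquitinases that set their stability were read at the RNA level. Upon PT2385 treatment 0 of 21 were called by edgeR and 0 by DESeq2, with 3 at an unadjusted p under 0.05. In the KO 4 rose and 4 fell (38.1% of 21, against 30.1% of all genes tested). MDM2, a ligase of Slug, rose (0.84, adjusted p = 4.79e-06), with FBXL14 (0.33), FBXL5 (0.31) and GSK3B (0.19), and the deubiquitinase USP3 (-0.70, adjusted p = 1.68e-05), the COP9 subunit COPS2 (-0.59), SIAH1 (-0.55) and FBXO31 (-0.44) fell. MDM2 was at 255, 273 and 234 CPM in the KO replicates, above the treated ones (164 to 165 CPM) and the WT ones (141.4 to 145 CPM).

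Of the inducing signals and their inhibitors, 10 of 29 tested were called upon PT2385 treatment, 6 higher and 4 lower (34.5%, against 7.70% of all genes tested). In the KO 20 of 28 were called, 8 higher and 12 lower (71.4%, against 30.1%). The Notch ligand JAG1 rose from 67.2, 53.9 and 58.3 CPM in the WT replicates to 352, 272 and 313 upon PT2385 treatment (2.38, adjusted p = 2.05e-08, edgeR). It was at 110, 118 and 142 in the KO (1.06, adjusted p = 2.61e-05), below the treated cells (-1.34, adjusted p = 2.17e-05). The inhibitors of basic helix-loop-helix factors ID1 and ID3 rose upon PT2385 treatment (0.93 and 0.48), while in the KO ID3 fell (-1.02) and ID1 was at -0.18 (adjusted p = 0.0977). The KO was below the treated cells for both, at -1.13 (adjusted p = 7.45e-06) for ID1 and -1.52 (adjusted p = 1.51e-06) for ID3. The activin subunit INHBA rose in both (0.58 and 1.38), and LIF (-0.42 and -0.54) and TGFB1 (-0.26 and -0.22) fell in both. TGFBR3 (2.46) rose and TGFB2 (-0.64) and IL11 (-2.59) fell in the KO. TGFBR3 had 13 to 26 counts per WT library and 105 to 118 per KO library, and IL11 had 41 to 93 and 7 to 15.

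In the list of microRNA hosts and antisense partners, 0 of 4 tested genes were called upon PT2385 treatment by edgeR or DESeq2, with 0 at an unadjusted p under 0.05. In the KO MIR34AHG, the host of miR-34a, rose from 22.4 ± 2.20 to 40.9 ± 5.29 CPM (0.88, adjusted p = 1.64e-04, edgeR). ZEB1-AS1 was at 4.47 ± 0.416 CPM in WT, 4.31 ± 0.548 upon PT2385 treatment and 4.27 ± 0.578 in the KO, and ZEB2-AS1 was not tested.

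Some of these calls were lost in fits with 1 library left out, which leave fewer libraries for the test. Upon PT2385 treatment the call of PRMT5 was lost in all 6 such fits and those of KRT8 and KDM1A in 5 of 6. In the KO the calls of KRT8 and KDM1A were lost in 0 of 6. Such losses do not show dependence on 1 library. The log2 fold change of PRMT5 stayed at 0.23 to 0.31. Upon PT2385 treatment, those of SOX4, ETS1, RUNX2, KLF5, KRT18, KRT8, ACTA2, EHMT2, PRMT5, KDM1A, INHBA, EGFR and TGFB1 were lost when at least 1 library was left out, most often WT replicate 2 or WT replicate 3. Their highest adjusted p ran from 0.0761 (EGFR, without PT2385 replicate 2) to 0.219 (RUNX2, without PT2385 replicate 2). In the KO, those of CLDN4, PATJ, BMI1, SUV39H1, FBXL14, TGFB1, CDH2, S100A4, SUZ12 and GSK3B were lost in this way, with a highest adjusted p from 0.0916 (TGFB1, without WT replicate 3) to 0.162 (S100A4, without WT replicate 3).

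The genes whose log2 CPM ran most like each factor over the 9 libraries were looked up among 10140 genes with a mean of at least 100 counts, as a description, since the libraries form 3 groups and share a replicate structure. For SNAI2 they were ZNF462 (Pearson r = 0.98), COPA (0.97) and RMC1 (0.97), and IGFBP3 ran most opposite (-0.98), falling from 585 CPM in WT to 376 upon PT2385 treatment and 299.7 in the KO. For ZEB2 they included GGH (0.98) and CREB1 (0.98), with FASTKD5 opposite (-0.97). For ZEB1 they were POLK (0.97), AKAP11 (0.97) and ALMS1 (0.97), with TBCB opposite (-0.94). For SNAI1 the likeness was lower, with MID1 (0.91), NKIRAS1 (0.90) and HEBP2 (0.89), and SPHK2 opposite (-0.95). Between the factors themselves r was 0.74 for ZEB1 and ZEB2 and -0.38 for SNAI1 and SNAI2.

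The 250 bases upstream of annotated RefSeq starts were searched on both strands for the HIF core (ACGTG or GCGTG) and for the E-box CACCTG that Snail, Slug and ZEB proteins bind. The ZEB2 window (chr2:144520120-144520369, minus strand) held 4 HIF cores and 0 CACCTG. It lies inside the annotated gene, which begins on this strand at 144521057, so it is not upstream of the outermost start. The PRRX1 window and all ZEB1 windows but the first also lie inside their annotated genes. A HIF core was present in 43.2% of 35116 such windows and 4 or more in 3.22%, and CACCTG in 17.5%. The 7 ZEB1 windows held 0 to 3 HIF cores and 0 to 2 CACCTG, and the PRRX1 and TWIST2 windows held 0 of both.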

How the data were processed

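RNA was sequenced in 9 libraries of 786-0 cells. The paper's methods name Tri-Reagent for RNA extraction under RT-qPCR and give no extraction step under RNA sequencing. Per the paper's methods, FastQC was used for read quality, cutadapt for trimming, STAR for alignment (GRCh38) and featureCounts for gene assignment; versions, strandedness and annotation release are not given in the sources used here. The authors deposited raw counts per gene, whole numbers without normalization, in 9 columns that were all mapped to samples by their names. Of 58735 identifiers, 58207 were paired with a symbol through GENCODE 44, which also gave coordinates and lengths. Groups and replicate numbers came from the sample labels.

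Counts were analysed with edgeR 4.0.16 in R 4.3.3, each pair of groups in its own model: low-count genes were left out by filterByExpr (minimum count 10), libraries were scaled by TMM, and the quasi-likelihood F test was applied without covariates, with Benjamini-Hochberg adjustment over all genes tested and a threshold of 0.05. CPM are counts per 1000000 of the library total multiplied by its TMM factor over the 9 libraries. SE and 95% intervals on fold changes were computed from the edgeR results, since the test itself returns neither. The SE is the absolute log2 fold change over the square root of its F statistic. The interval uses the t quantile at the total degrees of freedom of the test. With 11881000 to 14730081 counts per library, 3 counts, the floor used, are 0.206 to 0.251 CPM. Replicates of a group differed by more than sampling noise, with a chi-square per degree of freedom of 2.80 or more between any 2. The procedure was tested on simulated data.

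The 8 genes and the lists of related genes were chosen with earlier results of these data known, so no list was given a test of its own. From each list, up to 3 called genes per direction were named in each comparison with WT, by size of change, among those without overlap between groups and with a mean of at least 50 counts in the higher group, besides a fixed set (CDH1, CDH2, VIM, ESRP1, OVOL2, GRHL1, GRHL3, TCF4, SNAI3, PRRX2, ZEB1-AS1, ZEB2-AS1). ESRP2, OCLN, DSP, S100A4, WNT5A, SUZ12, GSK3B and FBXO31 were named after their values were seen.

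To learn whether replicate numbers pair the libraries, deviations from the group mean of log2 CPM were correlated over 10140 genes. The rule asked for r above 0.1 in every same-numbered pair of the 3 groups. Over all 9 such pairs r ran from 0.06 to 0.48, so the rule was not met as a whole. Same-numbered WT and PT2385 libraries gave r of 0.14 to 0.45, all 3 pairs above 0.1, a hint from the data that the number pairs them. The lowest r was 0.06 for WT and KO and 0.09 for KO and PT2385. The main calls, also those upon PT2385 treatment, are therefore from the fit without the replicate block, and the block is given as an alternative. Alternatives were DESeq2 1.42.0, other scalings and filters, a common model of all 9 libraries, the replicate block, a threshold of 0.01, leaving out each library and, chosen after seeing the data, a correction for transcript length (lowess, span 0.3, of each library's log2 CPM on canonical length) and the exon union as gene length. Protein sequences and the SNAI1, SNAI2, TWIST1 and GRHL2 promoters were not analysed here. A few items that the naming rule or the marker lists would include are not reported here.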

Additional observations from a re-analysis of the deposited data

How the results depend on the processing

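SNAI2 kept its direction in every alternative, and its calls against WT held under every scaling, filter, tool and length setting at the 0.05 threshold, as did those of ZEB2. At a threshold of 0.01, the calls upon PT2385 treatment fell to 0 of the 4 EMT factors, 10 related genes and 516 genes in all, those in the KO to 2788 genes in all, and those of KO against PT2385 to 1657. These counts are from the fit without the block; with the block (1.36e-04 and 1.94e-04) and with DESeq2 (7.83e-04 and 0.00263) the adjusted p of SNAI2 and ZEB2 upon PT2385 treatment was under 0.01. A common model of all 9 libraries called 16 related genes upon PT2385 treatment. Without a filter on low counts, KO against PT2385 called 3 EMT factors (SNAI1, SNAI2 and ZEB1), and the cause was not tested. That fit gave far smaller adjusted p at nearly the same fold changes. For ZEB2 upon PT2385 treatment it went from 0.0341 to 7.48e-08 at -0.48 and -0.47, and for SNAI2 in the KO from 3.81e-04 to 2.42e-18. Calls that passed only in that fit are thus not on an equal footing with the others. The common model turned TCF4 in the KO to -0.000637.

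With the replicate block, 40 related genes and 2305 genes in all were called upon PT2385 treatment, and 2523 in all with the length correction added. KO against PT2385 called 1 EMT factor with the block, SNAI2 (adjusted p = 0.0326), with or without the length correction, and KO against WT called SNAI1 as well (adjusted p = 0.0486). For these KO comparisons the rule on pairing was not met, though same-numbered libraries were more alike on average. Their mean r was 0.29 for WT and KO and 0.28 for KO and PT2385, against -0.14 and -0.14 for other numbers. KO replicate 2 was the exception, with r of 0.29 to WT replicate 1 and 0.06 to WT replicate 2. Its r was 0.18 to PT2385 replicate 1 and 0.09 to PT2385 replicate 2. The block ended or reversed no call of SNAI2 or ZEB2 against WT.

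Leaving out 1 library, in the fit without the block, gave 0 to 3 EMT factors, 11 to 25 related genes and 574 to 1451 genes in all upon PT2385 treatment, and 0 to 2 EMT factors and 1836 to 3190 genes in all for KO against PT2385. Signs turned for changes near 0: SNAI1 (-0.0305 to 0.237) and ZEB1-AS1 (-0.134 to 0.0462) upon PT2385 treatment, ZEB1 (-0.0321 to 0.118), TCF4 (-0.0690 to 0.0627) and ZEB1-AS1 (-0.153 to 0.0382) in the KO, and ZEB2 (-0.0717 to 0.203) for KO against PT2385. Depth limits the genes at 0 counts, and 3 replicates limit any exact test to p = 0.1.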
